A study of Mus musculus with 4 samples.

Results

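The cells described here are cycling mesenchymal cells of mouse tibial muscle, that is, cells that held transcripts of fibrillar collagens together with transcripts of genes used in cell division. They were chosen by their counts of unique molecular identifiers (UMIs), each UMI standing for 1 captured transcript molecule. A member had at most 10% of its UMIs from mitochondrial genes, at least 4 UMIs summed over *Mki67*, *Top2a*, *Cdk1*, *Birc5*, *Cenpf* and *Ube2c*, and at least 20 summed over *Col1a1*, *Col1a2* and *Col3a1*. It had 0 UMIs of *Ptprc*, *Pax7*, *Cdh5* and *Tnmd*, which mark leukocytes, satellite cells, endothelium and tenocytes, and at most 4 summed over the cartilage genes *Acan*, *Col9a1*, *Hapln1*, *Snorc* and *Matn3*. This rule found 2493 of 62665 cells, made up of 203 in the Uninjured library, 126 at 1 day post injury (dpi), 965 at 3 dpi and 1199 at 7 dpi. Because measured values chose the cells, the genes of the rule, and every contrast of cycling against non-cycling cells, are given as description and carry no test.

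All mice were Nse-Bmp4 animals on the C57BL/6 background, 6-8 weeks old, in which the neuron-specific enolase promoter drives *Bmp4*, so the Uninjured animals carried the transgene too. Bone forms in the muscles of these mice after injury, here an injection of cardiotoxin. Each library was made from 3 pooled tibial muscles digested with collagenase, one library from uninjured muscle and one each from 1, 3 and 7 dpi. With 1 library per time point, no difference between time points has a replicate check, time and library cannot be told apart, and no p-value is given; the 95% intervals printed below (exact Poisson for levels, exact binomial for shares, conditional binomial for ratios) cover counting error only.

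A dividing cell copies its DNA in S phase and separates the copies in mitosis, after a gap called G2. D-type and E-type cyclins release E2F transcription factors from the retinoblastoma protein RB, and E2F then switches on the genes for origin licensing and replication. The later genes, for mitotic cyclins, kinetochores and the spindle, are held in check by the DREAM complex and switched on by MYB-MuvB with FOXM1, which act on promoters through a short element named the cell cycle genes homology region (CHR), often near CCAAT boxes bound by NF-Y. Adult muscle fibroblasts, marked by *Pdgfra*, are mostly quiescent and are known to divide in the first days after injury.

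Promoters were shown because the cycle genes fall into these 2 groups, S and G2/M, in the values below. For each gene 120 bases before and 30 bases after the RefSeq start (build GRCm38.p6) are printed 5′ to 3′ on the gene's own strand, with matches in capitals. The letters searched, on both strands, were TTTGAA or TTCGAA for the CHR, CCAAT for the NF-Y box, and TTTCGCGC, TTTGGCGC, TTTCCCGC or TTTGGCGG for E2F; a match is a description of the letters and not a bound site. *Cdk1*, the mitotic kinase and a gene of the rule, lies at chr10:69352883-69353032 on the minus strand. The mitotic cyclin *Ccnb2* lies at chr9:70421525-70421674 on the minus strand, and *Cdc20*, the activator that lets chromatids part, at chr4:118437314-118437463 on the minus strand. The spindle genes *Hmmr* and *Prc1* lie at chr11:40733408-40733557 on the minus strand and at chr7:80294331-80294480 on the plus strand. *Mcm6*, a subunit of the replicative helicase, is shown as the S phase example, at chr1:128359676-128359825 on the minus strand.
Cdk1: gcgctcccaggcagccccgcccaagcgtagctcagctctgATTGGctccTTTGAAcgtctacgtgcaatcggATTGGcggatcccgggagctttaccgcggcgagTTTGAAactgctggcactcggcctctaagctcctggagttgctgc
Ccnb2: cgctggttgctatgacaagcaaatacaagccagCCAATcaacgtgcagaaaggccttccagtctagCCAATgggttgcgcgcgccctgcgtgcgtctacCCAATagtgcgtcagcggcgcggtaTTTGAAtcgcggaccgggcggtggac
Cdc20: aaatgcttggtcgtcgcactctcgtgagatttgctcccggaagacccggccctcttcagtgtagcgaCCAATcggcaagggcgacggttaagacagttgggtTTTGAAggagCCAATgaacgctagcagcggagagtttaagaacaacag
Hmmr: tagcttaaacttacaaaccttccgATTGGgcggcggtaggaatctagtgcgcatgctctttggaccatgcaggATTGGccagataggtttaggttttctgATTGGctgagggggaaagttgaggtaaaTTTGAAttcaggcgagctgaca
Prc1: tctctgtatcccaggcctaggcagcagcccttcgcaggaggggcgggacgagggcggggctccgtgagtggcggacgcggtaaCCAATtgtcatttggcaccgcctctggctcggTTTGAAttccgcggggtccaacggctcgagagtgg
Mcm6: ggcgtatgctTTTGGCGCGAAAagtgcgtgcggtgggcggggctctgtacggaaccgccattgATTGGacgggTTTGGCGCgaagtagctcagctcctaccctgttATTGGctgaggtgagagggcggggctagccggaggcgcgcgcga
In *Cdk1* the capitals mark 2 CHR and 2 CCAAT matches, in *Ccnb2* 1 CHR and 3 CCAAT, in *Cdc20* 1 and 2, in *Hmmr* 1 and 3, and in *Prc1* 1 and 1. *Mcm6* had no CHR match here, 2 CCAAT matches and 3 E2F matches, of which the first pair overlap. The printed genes are examples and do not stand for all genes of their kind. In the same stretch *Ccnb1*, *Plk1*, *Nusap1* and *Birc5* had no CHR match. *Mcm5*, *Mcm2*, *Pcna*, *Rrm2*, *Tyms*, *Tk1*, *Cdc6* and *Uhrf1* had no E2F match there, while *Mcm3* had 1, and *Mcm2* held a CHR match.

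Over the full windows of 300 bases (250 before to 50 after the start), a CHR match stood in 51 of the 77 G2/M list genes with a window (66.2%, 95% interval 54.6 to 76.6), against 5254 of all 27025 promoters (19.4%), and a CCAAT match in 54 (70.1%) against 37.9%. Of the S list genes, 15 of 38 held an E2F match (39.5%, 24.0 to 56.6) against 11.7% of the G2/M genes and 2.42% of all promoters, and 26.3% held a CHR match. A CCAAT match stood in 22 of 38 S list genes (57.9%, 40.8 to 73.7), so that its share was above that of all promoters in both lists. Of the 6 rule genes, 5 held a CHR and 5 a CCAAT match. Among genes that do not belong to the cycle, 1 of 9 wound matrix genes and 1 of 14 early injury genes held a CHR match.

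Of all cells, 6261 had 4 or more UMIs of the cycle genes and 4540 of those also passed the collagen minimum. The lineage genes then removed most of the difference to the final number, since 612 of the 4540 held *Ptprc*, 113 *Pax7*, 52 *Cdh5* and 743 *Tnmd*, with some cells in more than 1 class. The cartilage limit removed another 652 cells, 644 of them at 7 dpi. Cycling cells with tendon or cartilage transcripts at 7 dpi are therefore largely outside the population described here. Mesenchymal cells by the same rule without the cycle genes numbered 8715, 3240, 5282 and 9200 in the Uninjured, 1, 3 and 7 dpi libraries, the order used for all series of values below. Of these, 8160, 2842, 3406 and 5559 held no UMI of the cycle genes and are called non-cycling.

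The label was checked against genes outside the rule. *Dcn*, which encodes decorin and marks fibroblasts, was at 3320, 2984, 2295 and 1488 counts per 1000000 UMIs (CPM) in cycling cells of the Uninjured, 1, 3 and 7 dpi libraries and 18156, 14517, 12092 and 4060 CPM in non-cycling cells. As a background, mature B cells held 133, 347, 114 and 0 CPM, and all cells with a *Ptprc* UMI, whatever their collagen, 4070, 1718, 1673 and 1278, so that the level of *Dcn* alone does not set the cycling cells apart from the latter. *Prrx1*, a mesenchymal transcription factor, was at 187, 346, 271 and 346 CPM in cycling cells and 167, 229, 280 and 297 CPM in non-cycling cells. *Pdgfra*, the receptor that marks muscle fibroblasts, was at 132, 400, 166 and 94.0 CPM in cycling cells and 349, 517, 422 and 140 CPM in non-cycling cells. *Ccnb1*, which encodes cyclin B1 and was not in the rule, was at 103, 28.5, 89.0 and 100.5 CPM in cycling cells.

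The cells differed in depth, and the Uninjured cycling cells stood apart. Total UMIs per library were 112317902, 91146335, 116346301 and 129007669. Median UMIs per cycling cell were 30196, 25266, 22364 and 5848, against 9087, 8544, 5662 and 2341 in non-cycling cells, that is 3.32, 2.96, 3.95 and 2.50 times as many. A UMI minimum on 6 genes favours deep cells, and the part of the rule in this gap was not tested. The study removed cells beyond 2 SD in UMI or gene number and called doublets; when a limit of 2 SD on the log scale was applied within each library, 98 of 203 Uninjured cycling cells (48.3%) lay outside it, against 33.3% at 1 dpi, 23.2% at 3 dpi and 14.1% at 7 dpi. Those 98 cells held 33304 to 115096 UMIs and 77.7% of all UMIs of the Uninjured cycling cells, while the 105 within the limit held 3865 to 31202. Non-cycling cells above the upper limit numbered 32, 31, 7 and 41, at medians of 40829.5, 35853, 39535 and 24409 UMIs. Cycling cells outside the limit had medians of 59501.5, 44133.5, 43879.5 and 28170 UMIs. These 2 sets are called deep non-cycling and deep cycling cells below, and "at that depth" refers to them. All deep cycling cells lay above the upper limit except at 7 dpi, where 168 of 169 did. The deep cycling cells had the higher median in each library, so the 2 sets are not of equal depth. Where a ratio of a gene list in the Uninjured cells moved by more than 1.5 times within the limit, that value is given beside the result. Among the 7.5% of cells with the highest Scrublet doublet scores in each library were 15, 13, 87 and 33 members.

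By the limit of 1000 CPM used below, markers of other cell types were found in the fewest members in the Uninjured library and in the most at 7 dpi. The 13 leukocyte markers summed to 14.0, 240, 164 and 204 CPM in cycling cells, with *Cd74*, *S100a8*, *S100a8* and *Lyz2* as the most abundant, and *Laptm5*, *Cd3e*, *Nkg7* and *C1qa* at 0 in the Uninjured cells. The 8 markers of pericytes and smooth muscle summed to 49.2, 40.1, 61.8 and 748 CPM, and *Rgs5*, which marks pericytes, made up 362 CPM at 7 dpi, where 198 of 1199 members (16.5%) carried them above 1000 CPM. In non-cycling cells at 7 dpi they summed to 631 CPM, and 9.77% of cells carried them above 1000 CPM. Muscle markers summed to 16.2, 28.2, 101 and 74.7 CPM (*Des* leading in each library, *Myod1* and *Ttn* at 0 in Uninjured), endothelial markers to 14.8, 7.75, 7.91 and 20.2 (*Kdr*, *Emcn* and *Cldn5* at 0 in Uninjured) and Schwann markers to 97.7, 68.1, 113 and 182 (*Ncam1* leading in each). Keratinocyte markers stayed between 1.57 and 4.72 CPM, with *Sfn* leading. Erythroid markers were at 11.9, 544, 2.66 and 14.2 CPM, and 1950 of the 1964 erythroid UMIs at 1 dpi came from 3 cells. For leukocyte markers at 1 dpi 3 cells held 450 of 865 UMIs and for Schwann markers 135 of 246, and within 2 SD of depth the leukocyte sum there was 413 CPM, 2.07 times the non-cycling level instead of 1.21. In the Uninjured library that limit moved the ratio to non-cycling cells from 0.303 to 0.998 for muscle and from 0.519 to 1.31 for endothelial markers. It moved Schwann markers from 0.660 to 1.22, keratinocyte markers from 0.808 to 1.50 and erythroid markers from 0.0502 to 0.0853. In all, 2, 9, 74 and 357 members (0.985%, 7.14%, 7.67% and 29.8%) held the markers of some other type above 1000 CPM with at least 3 UMIs. Of non-cycling cells 2.21%, 3.10%, 4.32% and 28.0% did, so that the share at 7 dpi was near that of the non-cycling cells there. A shallow cell reaches 1000 CPM with fewer marker UMIs than a deep one, and the part of depth in these shares was not tested. Leukocyte markers passed that limit in 12.8% of members at 7 dpi and in 3.2% at 1 dpi, although their sum was lower at 7 dpi. Any 2 libraries shared between 30 and 95 cell barcodes, and 1 barcode was shared by members of different libraries (Uninjured and 3 dpi).

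Cycling cells were 2.33% of the mesenchymal cells in the Uninjured library (95% interval 2.02 to 2.67), 3.89% at 1 dpi (3.25 to 4.61), 18.3% at 3 dpi (17.2 to 19.3) and 13.0% at 7 dpi (12.4 to 13.7). The share at 3 dpi was 4.70 times that at 1 dpi and 7.84 times that in uninjured muscle. These ratios were 5.50 and 11.9 within 2 SD of depth on the log scale, and 7.75 and 12.2 on the linear scale. Because the libraries differed in depth, each cell was also thinned to 2000 UMIs, with minimums of 1 cycle UMI and 5 collagen UMIs, which left out 112, 47, 299 and 3241 shallower mesenchymal cells, 0, 0, 7 and 111 of them cycling. The thinned shares were 3.02%, 4.89%, 21.1% and 33.8%. At that minimum of 1 UMI the share of mature B cells, described below as a background, was 3 of 47 (6.38%, 1.34 to 17.5) in the Uninjured library and 15 of 519 (2.89%, 1.63 to 4.72) at 1 dpi, with 0 of 7 and 0 of 4 at 3 and 7 dpi, which allows up to 41.0% and 60.2%. The thinned Uninjured share was thus at the level of background, and the thinned shares at 3 and 7 dpi had none that could be measured, so that no order is read from them. Nor is one read between Uninjured and 1 dpi, because the summed CPM of the 6 rule genes over all mesenchymal cells was 159, 112, 583 and 550.

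**Figure D1:**
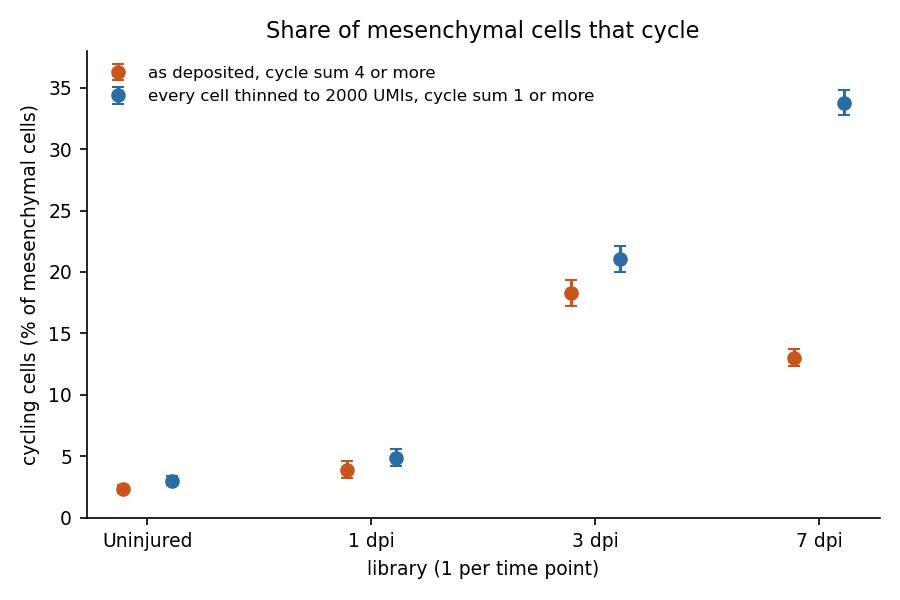
Percent of mesenchymal cells that were cycling (vertical axis) in each library (horizontal axis), as deposited and after thinning each cell to 2000 UMIs; points are 1 library each and bars are exact 95% binomial intervals for counting error. The Uninjured and 1 dpi libraries lie between 2.33% and 4.89%, and the 3 and 7 dpi libraries between 13.0% and 33.8%.

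Free RNA in droplets gives UMIs to cells that do not express a gene. Mature B cells, which do not divide, served as the comparison: with at least 3 *Ighd* UMIs and no UMI of the precursor genes, 3 of 653 (0.459%) reached 4 cycle UMIs, at median depths of 2518, 2951, 1879 and 1556 UMIs, all 3 at 1 dpi (3 of 557). In the 3 other libraries 0 of 54, 0 of 24 and 0 of 18 did, which allows shares of up to 6.60%, 14.2% and 18.5%. Only at 1 dpi (0.539%, up to 1.57%) and 3 dpi did these limits lie below the share of mesenchymal cells, 3.89% and 18.3%, and the B cells were shallower than the mesenchymal cells.

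The minimum of 4 UMIs cut a gradual range. Cells with exactly 4 numbered 8, 10, 58 and 232, at median depths of 12717, 23960, 13366.5 and 3128 UMIs, and cells with 3, just outside, numbered 11, 16, 92 and 355, at 19153, 26306.5, 11792 and 2658. The median level of the G2/M lists at 7 dpi was 4044 CPM just inside and 3509 just outside, and at 3 dpi 1890 and 1969. At 1 dpi the median level of the S lists was 4930 CPM just inside and 4681 just outside. Cells with 3 cycle UMIs thus carried about as much of both lists as those with 4, except in the Uninjured library, where the G2/M medians were 1439 and 948 CPM.

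Genes were compared between cycling and non-cycling cells of the same library from summed UMIs, counting those with a mean of at least 20 CPM over both that differed by more than 2-fold. In the Uninjured library 863 of 5771 genes (15%) were higher in cycling cells and 934 (16.2%) lower, 1797 in all, against 877 in all within 2 SD of depth. At 1 dpi 13.4% of 6420 genes were higher and 10.2% lower, at 3 dpi 7.99% of 6110 and 8.49%, and at 7 dpi 3.96% of 5862 and 3.16%. The gap between cycling and non-cycling cells was thus narrower at 3 dpi and narrowest at 7 dpi, where members were also shallowest. The median ratio over all genes tested was 1.00, 1.05, 1.07 and 1.04. A cycle gene absent from non-cycling cells passes the 20 CPM minimum through the cycling cells alone, so counts over the cycle lists below describe the cells and support nothing. The same holds for counts of injury genes in the Uninjured library, where genes such as *Cxcl5* and *Tnc* passed that minimum through the cycling cells.

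Genes of the first steps of the cycle were highest at 1 dpi. *Ccnd1*, which encodes cyclin D1, the sensor of growth signals, was at 22.9, 266, 73.2 and 35.5 CPM in cycling cells and 48.0, 52.7, 67.7 and 48.0 CPM in non-cycling cells. Its level was thus 5.05 times that of non-cycling cells at 1 dpi (11.6-fold above the Uninjured cycling cells, 95% interval 9.90 to 13.8) and 0.477 times in the Uninjured library. *Ccne2*, which encodes cyclin E2 and starts replication, was at 29.0, 76.4, 23.3 and 19.4 CPM. The 10 G1 cyclins and kinases together stood 1.35, 2.64, 1.61 and 1.18 times above non-cycling cells, and 1 of 4, 6 of 8, 1 of 4 and 0 of 5 tested were more than 2-fold higher, with 1 lower in the Uninjured library. *E2f1*, which encodes the factor that turns on S phase genes, was at 28.5, 89.7, 28.7 and 33.0 CPM, and the E2F, RB and MYB-MuvB regulators together were 3.67, 6.97, 3.99 and 3.10 times the non-cycling level.

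Over cells of all depths, the S phase machinery followed the same course. Origin licensing and helicase genes were 7.80, 10.5, 7.01 and 3.69 times the non-cycling level, with 9 of 9, 15 of 15, 10 of 10 and 8 of 9 tested genes more than 2-fold higher. Deep cycling cells held 733, 1892, 923 and 785 CPM of this list, against 127, 529, 222 and 225 CPM in deep non-cycling cells. At that depth the level was thus highest at 1 dpi in both, but the ratio between them was highest in the Uninjured library. *Mcm5* (ENSMUSG00000005410, mm10 chr8:75109569-75128439), a subunit of the ring that unwinds DNA, was at 48.8, 224, 81.0 and 56.4 CPM in cycling cells and 1.61, 14.9, 6.14 and 8.61 CPM in non-cycling cells. At 1 dpi it was thus highest in cycling cells, but also in non-cycling cells by 9.25 times over the Uninjured library.

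Replication fork and nucleotide genes were 6.45, 8.56, 5.53 and 3.98 times the non-cycling level, with 18 of 19, 27 of 27, 21 of 22 and 17 of 18 more than 2-fold higher. Deep cycling cells held 1768, 3833, 2105 and 1996 CPM of them, against 302, 799.5, 434 and 417 CPM in deep non-cycling cells. The ratio was thus highest in the Uninjured library at that depth. *Pcna*, the sliding clamp of the polymerases, was at 158, 640, 180 and 144 CPM, *Uhrf1*, which copies DNA methylation, at 43.1, 228, 77.5 and 52.7, and *Rrm2*, which supplies deoxynucleotides, at 106, 159, 122 and 107. Each of these 3 genes was highest at 1 dpi. Genes of homologous recombination and fork repair were 6.73, 11.6, 7.78 and 4.76 times the non-cycling level, with 3 of 3, 6 of 6, 2 of 2 and 2 of 2 tested genes past 2-fold. In deep cycling cells they were at 331, 664, 424 and 373 CPM, against 68.4, 121, 59.0 and 72.4 CPM in deep non-cycling cells. Their ratio was thus highest at 3 dpi there.

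Mitotic genes took the opposite course, with the lowest levels at 1 dpi. *Ccnb2*, whose promoter is printed above, was at 148, 27.4, 97.7 and 125 CPM in cycling cells, and *Cdc20* at 193, 32.1, 143 and 158. *Plk1*, a kinase of mitotic entry, was at 75.1, 26.3, 73.3 and 82.1 CPM, whereas *Ccna2*, the cyclin of both S phase and G2, differed less, at 112, 88.9, 104 and 107. Mitotic cyclins and kinases together were 13.5, 8.98, 9.44 and 9.52 times the non-cycling level, with 10 of 11, 7 of 7, 12 of 12 and 11 of 11 tested genes past 2-fold. In the Uninjured cells within 2 SD of depth the list was 20.95 times the non-cycling level.

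Kinetochore and centromere genes, which tie chromosomes to the spindle, were 15.3, 8.32, 9.59 and 8.74 times the non-cycling level (17 of 17, 11 of 12, 13 of 13 and 15 of 15 past 2-fold), and spindle, kinesin and cytokinesis genes 43.4, 19.9, 24.3 and 17.1 times (20 of 20, 16 of 17, 23 of 23 and 24 of 24). *Cenpa*, the histone of the centromere, was at 251, 36.3, 174 and 214 CPM, *Prc1*, which bundles the midzone of the spindle, at 331, 125, 187 and 232, and *Hmmr* at 183, 52.9, 130 and 135. All 3 were lowest at 1 dpi, and the Uninjured cells held the highest value of each. Within 2 SD of depth the Uninjured ratios of these lists were higher still, at 25.2 for kinetochore and 77.6 for spindle genes. Condensin, cohesin and chromatid release genes were 4.81, 4.31, 4.85 and 4.01 times the non-cycling level (9 of 11, 9 of 12, 6 of 8 and 7 of 9). Chromatin proteins of dividing cells were 4.96, 3.93, 3.41 and 3.01 times (17 of 18, 14 of 17, 16 of 18 and 15 of 17). Among these, *Stmn1*, which destabilises microtubules, was at 556, 342, 299.5 and 428 CPM against 6.24, 5.32, 17.1 and 58.5 in non-cycling cells, and *H2afz*, a histone variant, at 1709, 1067, 1363 and 1354 against 179, 176, 230 and 314.

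**Figure D2:**
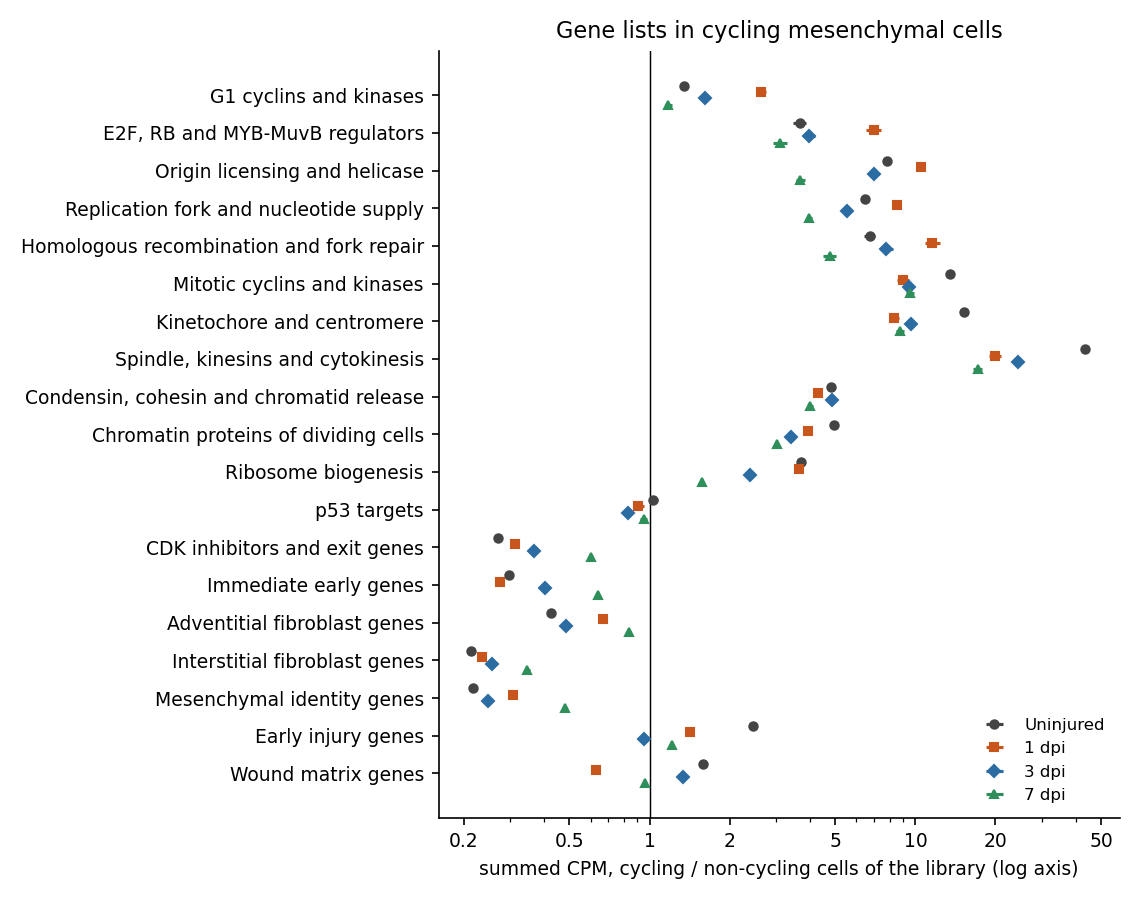
Ratio of the summed CPM of each gene list in cycling cells to that in non-cycling cells of the same library (horizontal log axis), for 19 lists (vertical axis), with 1 marker per library and exact 95% intervals for counting error. Cycle lists lie to the right of 1, up to 43.4 for spindle genes in the Uninjured library, and interstitial fibroblast genes lie to the left in every library, between 0.214 and 0.348.

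The balance of S and G2/M transcripts leaned most to S at 1 dpi, in cycling and in non-cycling cells. Summed over the 46 genes of the S lists (licensing and fork), cycling cells held 2567, 5898, 2846 and 2381 CPM, and over the 93 genes of the G2/M lists (mitotic, kinetochore, spindle and condensin) 7845, 4851, 6047 and 6972 CPM. A cell was counted as S-heavy where the first sum exceeded the second. S-heavy cells were 36 of 203 in the Uninjured library (17.7%, 95% interval 12.7 to 23.7), 98 of 126 at 1 dpi (77.8%, 69.5 to 84.7), 221 of 965 at 3 dpi (22.9%, 20.3 to 25.7) and 85 of 1199 at 7 dpi (7.09%, 5.70 to 8.69). At 1 dpi the share was thus above that of every other library by more than the intervals. Non-cycling cells had their highest share at 1 dpi too, with 14.7%, 34.8%, 27.5% and 25.5% within 2 SD of depth and 6 of 32, 24 of 31, 2 of 7 and 12 of 41 above that limit, so that the 1 dpi peak was not particular to cycling cells. With the 6 rule genes, most of which peak late, added to the G2/M sum, the shares were 14.8%, 65.9%, 16.1% and 3.67%, and within 2 SD of depth 11.4%, 76.2%, 20.5% and 5.05%, where the intervals of the Uninjured library (6.05 to 19.1) and 7 dpi (3.79 to 6.57) overlapped. The class is a range and not a type, and 22, 24, 158 and 98 cells lay within 20% of the cut. S-heavy cells were deeper, with medians of 42755.5, 26936.5, 27900 and 16772 UMIs against 27014, 20764, 21074 and 5490 in the G2/M-heavy cells, and the part of depth in the shares was not tested beyond the 2 SD limit.

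**Figure D3:**
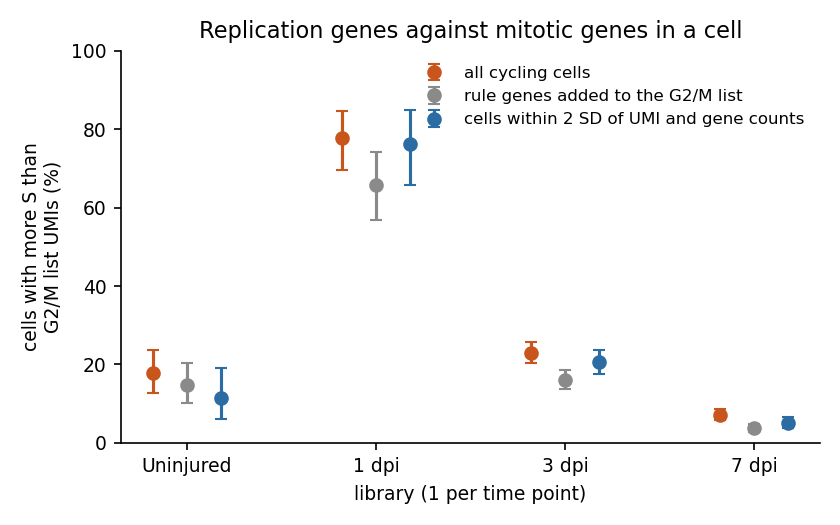
Percent of cycling cells with more S list than G2/M list UMIs (vertical axis) in each library (horizontal axis) under 3 settings, namely as chosen, with the 6 rule genes in the G2/M list, and within 2 SD of depth; bars are exact 95% binomial intervals. The 1 dpi library lies between 65.9% and 77.8%, the others between 3.67% and 22.9%.

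Single genes are given for both classes. *Ccne2*, in neither list and known to peak at the start of S phase, was at 77.4, 82.4, 52.2 and 66.7 CPM in S-heavy cells and 15.5, 45.2, 13.2 and 12.5 in G2/M-heavy cells. *Cdc20* and *Ccnb1*, which belong to the lists that made the classes, were at 27.0, 17.9, 29.6 and 25.5 against 240, 93.3, 183 and 178 CPM and at 6.60, 15.5, 13.3 and 6.54 against 130, 84.6, 116 and 115 CPM. At 1 dpi the G2/M-heavy cells held less *Cdc20* than in the other libraries and more *Ccne2*, and they numbered 27.

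Over cells of all depths, inhibitors of the cycle were lower in cycling cells as a list. The 16 CDK inhibitors and exit genes summed to 1133, 1164, 1015 and 1243 CPM in cycling cells, 3.72-, 3.21-, 2.72- and 1.66-fold below non-cycling cells, with 7 of 11, 9 of 13, 6 of 10 and 2 of 13 tested genes more than 2-fold lower and 2, 2, 1 and 2 higher. Deep cycling cells held 721, 1026, 833 and 1047 CPM of the list, against 1316, 1043, 1399 and 1293 CPM in deep non-cycling cells. The gap at 1 dpi was thus nearly absent at that depth. *Cdkn1c* (ENSMUSG00000037664, mm10 chr7:143458339-143461050), which encodes the inhibitor p57 of quiescent cells, was at 33.7, 9.97, 22.2 and 74.8 CPM against 282, 104, 116 and 296. That is 8.38-, 10.4-, 5.24- and 3.96-fold lower. *Txnip*, a thioredoxin-binding protein that slows growth, was 7.90-, 6.23-, 5.96- and 2.56-fold lower, and *Gas1*, named for growth arrest, 4.85-, 3.98-, 3.70- and 1.64-fold lower. *Cdkn2c*, which encodes the inhibitor p18, went the other way, at 68.9, 36.8, 32.9 and 59.8 CPM against 8.96, 5.65, 6.56 and 17.5. *Cdkn1a*, which encodes p21, was at 63.5, 162, 68.4 and 56.2 CPM against 93.8, 298, 179 and 81.2. The p53 targets as a list were near the non-cycling level, at 1.04, 0.909, 0.830 and 0.951 times, with 0, 1, 0 and 0 higher and 0, 0, 1 and 0 lower.

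Immediate early genes, which tissue digestion is known to raise, were 3.37-, 3.65-, 2.46- and 1.56-fold lower in cycling cells, with 11, 12, 10 and 0 of 15 tested genes more than 2-fold lower. *Fos*, a subunit of the AP-1 factor, was at 2522, 988, 914 and 1775 CPM against 8294, 3970, 2587 and 2595 in non-cycling cells. *Ier3* was the exception in the Uninjured library, at 820 CPM against 263, and it was at 229 against 204 at 1 dpi. In the 105 Uninjured cycling cells within 2 SD of depth the ratio of the list was 0.512, and that of the CDK inhibitors and exit genes 0.603. Deep cycling cells held 7968, 5491, 5937 and 6937 CPM of the immediate early genes, against 13996, 8142, 8139 and 7533 CPM in deep non-cycling cells. That gap was smaller than over all depths in each library.

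Genes for ribosome biogenesis, whose products a growing cell needs, were 3.71, 3.66, 2.39 and 1.57 times higher in cycling cells, with 17 of 17, 16 of 17, 10 of 17 and 0 of 16 past 2-fold, none of which the rule used directly. *Npm1*, a nucleolar chaperone, was at 2245, 2537, 2091 and 1316 CPM against 425, 581, 792 and 845. *Ncl*, the nucleolar protein nucleolin, was at 909, 1557, 963 and 624 CPM in cycling cells. From 1 to 7 dpi non-cycling levels of *Npm1* were higher and cycling levels lower in each later library. For cells within 2 SD of depth the ratios of the list were 1.92, 3.23, 2.13 and 1.41, so that the Uninjured value then lay below that at 1 dpi. Deep cycling cells held 5913, 7284, 5583 and 3693 CPM of the list, against 3804, 4689, 3820 and 2703 CPM in deep non-cycling cells. At that depth the list was thus less than 2-fold higher in each library.

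Outside the cycle lists, 168 of 9826 genes with at least 100 UMIs on the higher side were more than 2-fold higher, and 358 more than 2-fold lower, in cycling cells of 1, 3 and 7 dpi alike. The 10 highest by their smallest ratio over these 3 libraries were *Hist1h2ap*, *Shcbp1*, *Hist1h1a*, *Mxd3*, *Hist1h1b*, *Pimreg*, *Neil3*, *Iqgap3*, *Hist1h2ae* and *Spdl1*, among them replication-dependent histones, a DNA glycosylase (*Neil3*) and a spindle protein (*Spdl1*). *Hist1h2ap* (ENSMUSG00000094777, mm10 chr13:21833026-21833507) was at 1815, 882, 641 and 322 CPM against 4.38, 2.02, 5.07 and 8.56. Histone genes of this cluster are nearly identical and mostly lack a poly(A) tail, so their assignment and level are uncertain. The 10 lowest were *Inmt*, *Angptl7*, *Col4a4*, *Adamtsl2*, *P2ry14*, *Myoc*, *Abca6*, *Slco2b1*, *Kcna2* and *Abca8a*. *Inmt*, a methyltransferase, was 26.2-, 22.8-, 32.1- and 12.6-fold lower, and *Myoc*, which encodes myocilin, 8.23-, 14.1-, 9.34- and 5.71-fold lower. Over cells of all depths, both were thus lower in the Uninjured cycling cells too, which the choice of these genes had not used. Of the UMIs of those cells 77.7% came from the 98 deep ones, and values within 2 SD are not given.

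Over cells of all depths, genes of resting fibroblasts were lower in cycling cells of every library. Interstitial fibroblast genes were 4.67-, 4.28-, 3.91- and 2.88-fold lower, with 11 of 12, 8 of 11, 11 of 12 and 11 of 11 tested genes past 2-fold. Deep cycling cells held 1184, 1314, 1222 and 530 CPM of this list, against 5198, 2154, 2830 and 570 CPM in deep non-cycling cells. Little of the gap at 7 dpi was thus present at that depth. *Smoc2*, a matrix protein, was at 316, 327, 268 and 135 CPM in cycling cells against 2043, 1639, 1140 and 430, and *Hsd11b1*, which activates glucocorticoids, was 8.11-, 5.00-, 9.63- and 3.85-fold lower. Adventitial fibroblast genes differed less, at 0.425, 0.668, 0.483 and 0.837 times the non-cycling level, with 8 of 12, 7 of 12, 7 of 10 and 3 of 10 past 2-fold lower and 1, 1, 0 and 0 higher. In deep cycling cells they were at 2475, 5069, 1922 and 2091 CPM, against 5056, 6559, 1660 and 2263 CPM in deep non-cycling cells. The direction was thus turned at 3 dpi, where the latter numbered 7. *Pi16*, which marks adventitial fibroblasts, was at 396, 154, 77.5 and 83.3 CPM against 1671, 807, 578 and 237, whereas *Ly6a* of the same list, which encodes SCA1, was highest at 1 dpi, at 3277 CPM against 1250, 1283 and 921 in the other libraries.

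Mesenchymal identity genes were 0.216, 0.308, 0.247 and 0.483 times the non-cycling level, but the members did not move together. *Dcn* (ENSMUSG00000019929, mm10 chr10:97479609-97518143) was at 3320, 2984, 2295 and 1488 CPM against 18156, 14517, 12092 and 4060, and *Lum*, another small proteoglycan of collagen fibres, was 3.80-, 4.77-, 4.92- and 3.08-fold lower. *Prrx1* was at 1.12, 1.51, 0.966 and 1.16 times the non-cycling level. In total 4 of 10, 2 of 10, 4 of 9 and 2 of 9 tested genes were more than 2-fold lower. In the Uninjured cycling cells within 2 SD these gaps were smaller, with ratios of 0.427 for interstitial, 0.740 for adventitial and 0.513 for identity genes. Deep cycling cells held 2658, 5178, 2534 and 2530 CPM of the identity genes, against 7687, 6869, 4740 and 2950 CPM in deep non-cycling cells. *Dcn* was at 1800, 2906, 1515 and 1169 CPM in the former and 6251, 4090, 3646 and 1522 CPM in the latter.

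Over cells of all depths, injury genes were highest relative to non-cycling cells in the library that was not injured. Most of that excess lay in its deepest cells. The early injury genes, chemokines, cytokines and acute phase proteins that fibroblasts make after damage, summed to 18951, 13074, 10450 and 4297 CPM in cycling cells against 7729, 9230, 10957 and 3546, with 11 of 16, 5 of 15, 5 of 16 and 2 of 15 tested genes more than 2-fold higher and 0, 3, 5 and 0 lower. Deep cycling cells held 21609, 13117, 10457 and 4964 CPM of this list, against 33936, 17110.5, 13313 and 4265 CPM in deep non-cycling cells. At that depth the list was thus lower in cycling cells of every library but 7 dpi. *Timp1* (ENSMUSG00000001131, mm10 chrX:20870166-20874735), an inhibitor of metalloproteinases, was at 2686, 941, 1821 and 1123 CPM against 79.9, 411, 677 and 561. *Cxcl5* (ENSMUSG00000029371, mm10 chr5:90759360-90761624), a chemokine that draws neutrophils, was at 233, 1212, 432 and 39.2 CPM against 1.22, 117, 163 and 16.0, and so was highest in the 1 dpi cells. *Ccl2*, which draws monocytes, was at 2917, 2161, 1552 and 544 CPM against 227, 472, 774 and 319. *Inhba*, which encodes a subunit of activin A, was at 343, 11.9, 244 and 92.1 CPM against 14.4, 16.6, 23.1 and 92.0. Its cycling and non-cycling values thus lay together at 1 and 7 dpi and apart in the Uninjured and 3 dpi libraries. *Prg4*, which encodes lubricin, was at 1612, 1085, 1336 and 75.2 CPM against 158, 1034, 1197 and 67.1.

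Wound matrix genes, which activated fibroblasts secrete or contract with, summed to 7365, 1996, 10954 and 15948 CPM in cycling cells against 4623, 3171, 8230 and 16547, with 9 of 14, 2 of 12, 8 of 16 and 0 of 16 tested genes more than 2-fold higher and 1, 4, 0 and 0 lower. Deep cycling cells held 8225, 1915, 11187 and 16364 CPM of this list, against 7015, 2630, 13424 and 18992 CPM in deep non-cycling cells. *Tnc* (ENSMUSG00000028364, mm10 chr4:63959785-64047015), which encodes tenascin C, was at 350, 46.5, 428 and 482 CPM against 3.15, 25.3, 121 and 423. *Cthrc1* (ENSMUSG00000054196, mm10 chr15:39076932-39087121), a secreted collagen-regulating protein, was at 965, 30.2, 564 and 1241 CPM against 25.6, 22.1, 208 and 1041. *Acta2* (ENSMUSG00000035783, mm10 chr19:34241090-34255590), the actin of myofibroblasts and smooth muscle, was at 277, 4.15, 435 and 1344 CPM against 17.6, 12.5, 66.2 and 952; at 7 dpi pericyte markers were present too, and without the 357 cells of other types it was 1031. For all 3 genes the 1 dpi cycling cells were lowest, and the cycling and non-cycling values were closest at 7 dpi or 1 dpi. *Postn*, which encodes periostin, was at 1258, 255, 2166 and 2874 CPM against 286, 121, 1179 and 3737.

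The Uninjured injury-gene values rested on the deepest cells. In the 98 Uninjured cycling cells outside 2 SD, *Tnc* was at 427 CPM, against 80.3 in the 105 within. *Cthrc1* was at 1198 against 151, *Acta2* at 345 against 39.9, *Timp1* at 3261 against 680, *Cxcl5* at 295 against 19.3 and *Inhba* at 438 against 11.1. *Dcn* and *Pi16* of resting fibroblasts were turned the other way, at 1800 against 8622 and 224 against 995 CPM. The early injury list was 1.33 times and the wound matrix list 0.954 times the non-cycling level in the cells within the limit, instead of 2.45 and 1.59, so that the excess of wound matrix genes was not present there, although *Tnc* at 80.3 and *Cthrc1* at 151 CPM stayed above the 3.15 and 25.6 of non-cycling cells. Within the limit the Uninjured library was not the highest for either list. Early injury genes at 1 dpi were at 13023 against 8879 CPM, and wound matrix genes at 3 dpi at 10777 against 8173 CPM. Depth went with some of these genes outside the cycle too: the 32 Uninjured non-cycling cells beyond the same limit (median 40829.5 UMIs) held *Timp1* at 2280 CPM, *Cthrc1* at 559, *Tnc* at 54.1 and *Dcn* at 6251, with *Acta2* at 25.6 and *Inhba* at 5.26. *Prg4* was at 3546 CPM in these 32 cells, above the 1896 CPM of the 98 cycling cells. Whether the 98 cells were single cells of uninjured muscle was not tested; the highest 7.5% of doublet scores held 2 of these 98 cells and 13 of the 105 within the limit.

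**Figure D4:**
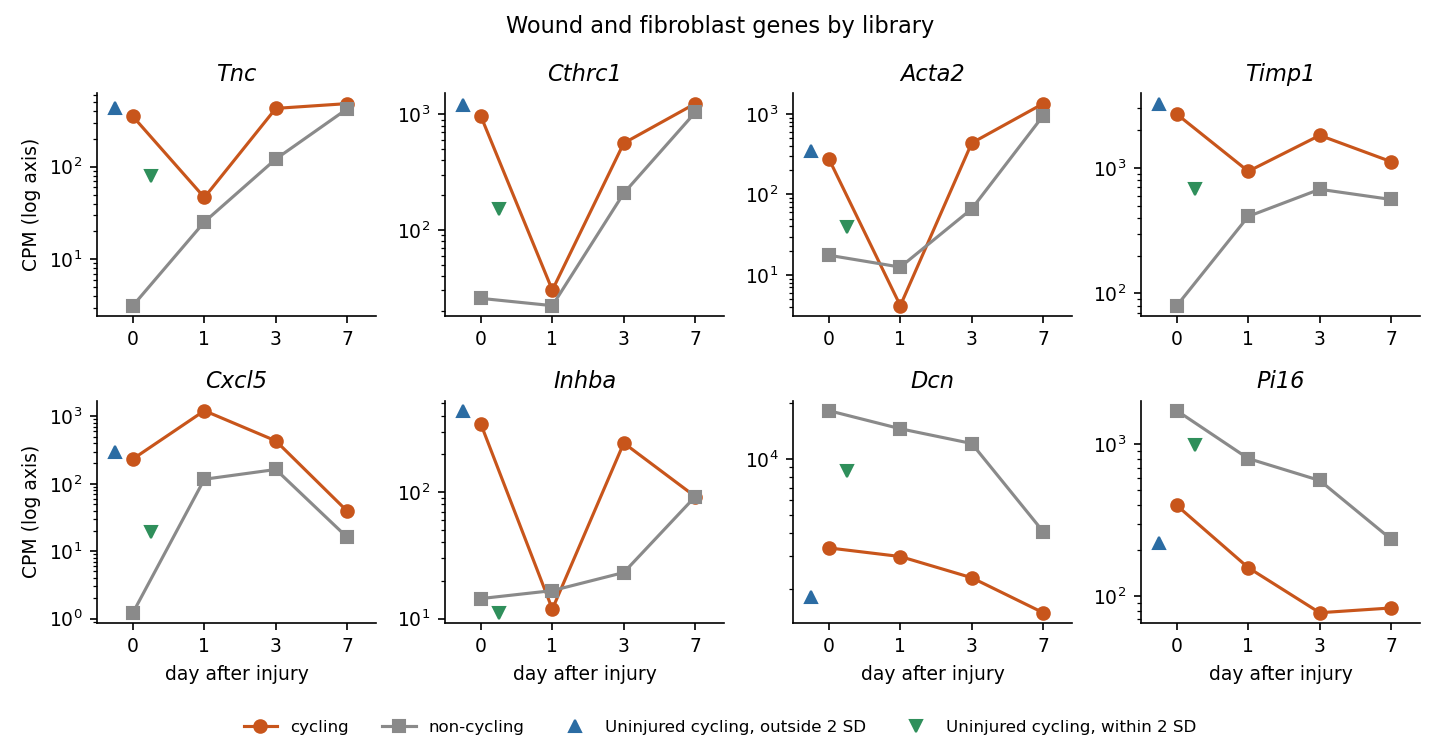
Level in CPM (vertical log axis) of 8 genes against library (horizontal axis, days 0, 1, 3 and 7 evenly spaced, 0 being Uninjured), with cycling cells as orange circles, non-cycling cells as grey squares, and the Uninjured cycling cells split into those outside (blue triangles pointing up) and within (green triangles pointing down) 2 SD of depth. In the Uninjured library the wound and injury genes *Tnc*, *Cthrc1*, *Acta2*, *Timp1*, *Cxcl5* and *Inhba* are higher and *Dcn* and *Pi16* lower outside the limit than within it, and at 7 dpi cycling and non-cycling values of *Tnc* (482 and 423) lie close.

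Transcription factors of cartilage and bone were, summed as a list, at 1.75, 1.15, 1.39 and 0.969 times the non-cycling level in the 4 libraries, with 2 of 6, 2 of 6, 1 of 6 and 0 of 5 tested genes more than 2-fold higher and 1, 2, 1 and 0 lower. The sum rested on *Runx1* in the first 2: the other 17 genes were at 1.02, 0.859, 1.35 and 0.915 times the non-cycling level, and the median ratio of the tested genes at 1 dpi was 0.574. *Runx1* was at 179, 122, 306 and 251 CPM against 16.0, 45.7, 212 and 230. *Runx2*, the master factor of osteoblasts, was at 42.7, 8.86, 71.6 and 66.4 CPM against 5.63, 8.80, 17.2 and 46.2. *Sox9*, the master factor of cartilage, was at 19.2, 19.7, 35.2 and 91.0 CPM against 32.3, 36.0, 34.5 and 102, and so differed little between cycling and non-cycling cells from 3 dpi on. In the Uninjured cells within 2 SD the ratio of the list was 1.04. Tendon genes were at 0.495, 0.260, 0.562 and 0.669 times the non-cycling level and cartilage and bone matrix genes at 0.683, 0.579, 0.978 and 0.801 times, both limited by the rule, which removed cells with *Tnmd* and with cartilage genes.

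Genes that BMP signals switch on were 1.43, 1.37, 1.17 and 1.40 times the non-cycling level, with 1 of 4, 0 of 3, 0 of 4 and 1 of 5 tested genes past 2-fold. *Id1*, an inhibitor of differentiation factors and a direct BMP target, was at 61.8, 22.7, 39.5 and 65.5 CPM against 14.2, 14.5, 20.2 and 32.5, and *Id3* was at 620, 404, 600 and 746 CPM in cycling cells. Over cells of all depths, receptors of growth factors and cytokines were lower, at 0.526, 0.670, 0.554 and 0.732 times, with 7, 4, 5 and 2 of 17, 17, 17 and 15 tested genes past 2-fold. STAT and PI3K-AKT genes were at 0.481, 0.745, 0.581 and 0.852 times, with 4 of 13, 2 of 15, 4 of 14 and 0 of 13 past 2-fold lower and 0, 1, 0 and 0 higher. Deep cycling cells held 1089, 2119, 1464 and 1138 CPM of the receptors, against 2245, 2470, 1892 and 1234 CPM in deep non-cycling cells. Of the STAT and PI3K-AKT genes they held 786, 1617, 1051 and 937 CPM, against 1222, 1865, 1149 and 1001 CPM. The gaps at 1, 3 and 7 dpi were thus smaller at that depth for both lists. *Socs3*, the feedback inhibitor that STAT3 induces, was at 162, 437, 218 and 179 CPM against 788, 804, 734 and 299.5 over all depths. *Akt1*, the kinase of the PI3K-AKT pathway, was at 1.50, 1.87, 1.59 and 1.28 times the non-cycling level.

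Successive libraries were then compared within cycling cells, a contrast the rule did not use directly, with 1 library on each side. From Uninjured to 1 dpi, 765 of 6000 genes (12.8%) were more than 2-fold higher and 318 (5.3%) lower. From 1 to 3 dpi 4.28% of 6261 genes were higher and 5.35% lower, and from 3 to 7 dpi 2.28% of 5931 were higher and 2.07% lower. The median ratio over all genes tested was 1.12, 0.959 and 0.928. Scaling by the median ratio of well-counted genes would move the log2 ratios of the 3 steps by -0.26, 0.11 and 0.08. The list values below are given on the CPM scale and, where stated, relative to that median.

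S list genes were 2.30 times the Uninjured level at 1 dpi (95% interval 2.25 to 2.34; 1.92 relative to the median), 0.483 times the 1 dpi level at 3 dpi (0.520) and 0.836 times the 3 dpi level at 7 dpi, with 27 of 42 tested genes past 2-fold higher, 24 of 43 lower and 0. G2/M list genes were 0.618 times (0.608 to 0.629; 0.516 relative to the median), 1.25 times (1.34) and 1.15 times, with 1 of 81 higher and 19 lower at the first step, 12 of 81 higher and 2 lower at the second, and 0 of 83 at the third. The direction of both lists at the first 2 steps was thus opposite under either scaling. Within 2 SD of depth the G2/M list was 0.400 times the Uninjured level at 1 dpi. Non-cycling cells held 1.71 times more of the S list genes at 1 dpi than in the Uninjured library.

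Wound matrix genes were 0.271 times the Uninjured level at 1 dpi, 5.49 times the 1 dpi level at 3 dpi and 1.46 times the 3 dpi level at 7 dpi in cycling cells (13 of 14 tested genes past 2-fold lower, 14 of 15 higher and 5 of 16 higher), against 0.686, 2.60 and 2.01 times in non-cycling cells. Within 2 SD of depth the first ratio was 0.479. Early injury genes were 0.690, 0.799 and 0.411 times in cycling cells, but the first of these turned to 1.35 within 2 SD of depth and was 1.19 in non-cycling cells. At the last step 12 of 16 early injury genes were past 2-fold lower, and *Cxcl5* and *Prg4* were 11.0- and 17.8-fold lower. That difference was also present in non-cycling cells, in which the list was at 0.324 times.

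The 10 genes with the largest ratios in each direction were also taken for each step, from those with at least 100 UMIs on the higher and 10 on the lower side. Higher at 1 dpi than in the Uninjured cells were *Hba-a1*, *S100a8*, *Rsad2*, *Igkc*, *Oasl2*, *Isg15*, *Hbb-bs*, *Ifit1*, *Cd24a* and *Irf7*, of which 5 are interferon-induced and 4 belong to erythroid cells, neutrophils or B cells. *Isg15*, an interferon-induced ubiquitin-like protein, was at 17.2, 437, 95.4 and 78.0 CPM against 27.1, 224, 123 and 78.7 in non-cycling cells. In the Uninjured cycling cells within 2 SD of depth it was at 69.7 CPM, above the non-cycling level, and 7.04-fold higher at 1 dpi. Lower at 1 dpi were *Acta2*, *Tagln*, *Cthrc1*, *Inhba*, *Nr1d1*, *Cda*, *Ccn4*, *Tcim*, *Fabp4* and *Cilp*, led by *Acta2* at 66.7-fold. Within 2 SD of depth all 10 of the higher and 9 of the 10 lower genes stayed past 2-fold. *Tagln* did not, at 9.38 CPM in the Uninjured cells and 8.51 at 1 dpi, while *Acta2* was at 39.9 and 4.26 CPM there, that is 9.36-fold lower, *Cthrc1* at 151 and 34.7 and *Inhba* at 11.1 and 4.26. *Nr1d1*, a repressor of the circadian clock, was 22.3-fold lower in cycling cells and 29.1-fold lower in non-cycling cells.

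Higher at 3 dpi than at 1 dpi were *Acta2*, *Tagln*, *Enpp1*, *Cda*, *Inhba*, *Ptn*, *Tpm2*, *Cthrc1*, *Cilp* and *Pappa*. *Acta2* was 105-fold (63.5 to 187) higher from the 4.15 CPM at 1 dpi, and *Tpm2*, a tropomyosin, was 19.9-fold (16.1 to 24.9) higher. *Acta2*, *Tagln*, *Cthrc1*, *Inhba*, *Cda* and *Cilp* are on the list of genes lower at 1 dpi than in the Uninjured cells too, *Tagln* there through the deepest Uninjured cells, and both comparisons share the 1 dpi cells. Lower at 3 dpi were *Car2*, *Hba-a1*, *Hbb-bs*, *Hba-a2*, *Cd24a*, *Cmpk2*, *Krtdap*, *Ifit3*, *Penk* and *Hlf*, the first 4 of which are abundant in erythroid cells, the type whose UMIs came almost wholly from 3 cells at 1 dpi.

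Higher at 7 dpi than at 3 dpi were *Rgs5*, *Ibsp*, *Col11a1*, *Gzmd*, *Acan*, *Mcam*, *Gzme*, *Hoxb2*, *Mmp13* and *Col11a2*, among them genes of pericytes, of cartilage and bone matrix, 2 granzymes and the homeobox gene *Hoxb2*. *Rgs5* was at 1.17 CPM at 3 dpi and 362 at 7 dpi, and 17.7 at 7 dpi without the cells of other types, which were chosen partly by this gene. *Ibsp*, which encodes bone sialoprotein, was at 0, 0, 1.50 and 297 CPM. *Gzmd*, a granzyme of cytotoxic cells, was at 0.131, 0, 0.832 and 49.7 CPM in cycling cells. Of the cartilage and bone matrix list, 7 of 8 tested genes were past 2-fold higher at this step, in cells that the rule had limited to 4 UMIs of 5 cartilage genes, *Acan* among them, so that its value is a description only. Lower at 7 dpi were *Mpo*, *Prg4*, *Ngp*, *Cxcl13*, *Chrna1*, *Cxcl5*, *Aldh1a2*, *Camp*, *Car3* and *Slc10a6*, of which *Mpo*, *Ngp* and *Camp* are genes of neutrophil granules.

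Last, all pairs of the 4 cycling and 4 non-cycling populations were set against each other over genes outside the cycle lists, by the percent of tested genes past 2-fold. Cycling and non-cycling cells of the same library differed in 29.8% of genes in the Uninjured library, 22.2% at 1 dpi, 15% at 3 dpi and 5.4% at 7 dpi. The Uninjured cycling cells differed from cycling cells of 1, 3 and 7 dpi in 17.4%, 6.43% and 6.19%, and thus in fewer genes than from their own non-cycling cells. Cycling cells of 3 and 7 dpi differed in 4.46%, whereas non-cycling cells of those libraries differed in 9.8%. These populations share libraries, and the depth of the cells differs between them.

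The nearness of the Uninjured to the 3 and 7 dpi cycling cells rested on the deep cells. The 98 outside 2 SD differed from 3 and 7 dpi cycling cells in 9.83% and 9.21% of genes and from Uninjured non-cycling cells in 36.8%. The 105 within the limit were not nearer to 3 and 7 dpi cycling cells, with 16.7% and 13.4% against these and 12.1% against Uninjured non-cycling cells, and with the limit on both sides 14%, 12.4% and 12.4%. The 2 sets of Uninjured cycling cells differed from each other in 22% of genes. With the limit applied to every population, cycling and non-cycling cells of the same library differed in 12.4%, 19.7%, 11.2% and 3.72% of genes.

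**Figure D5:**
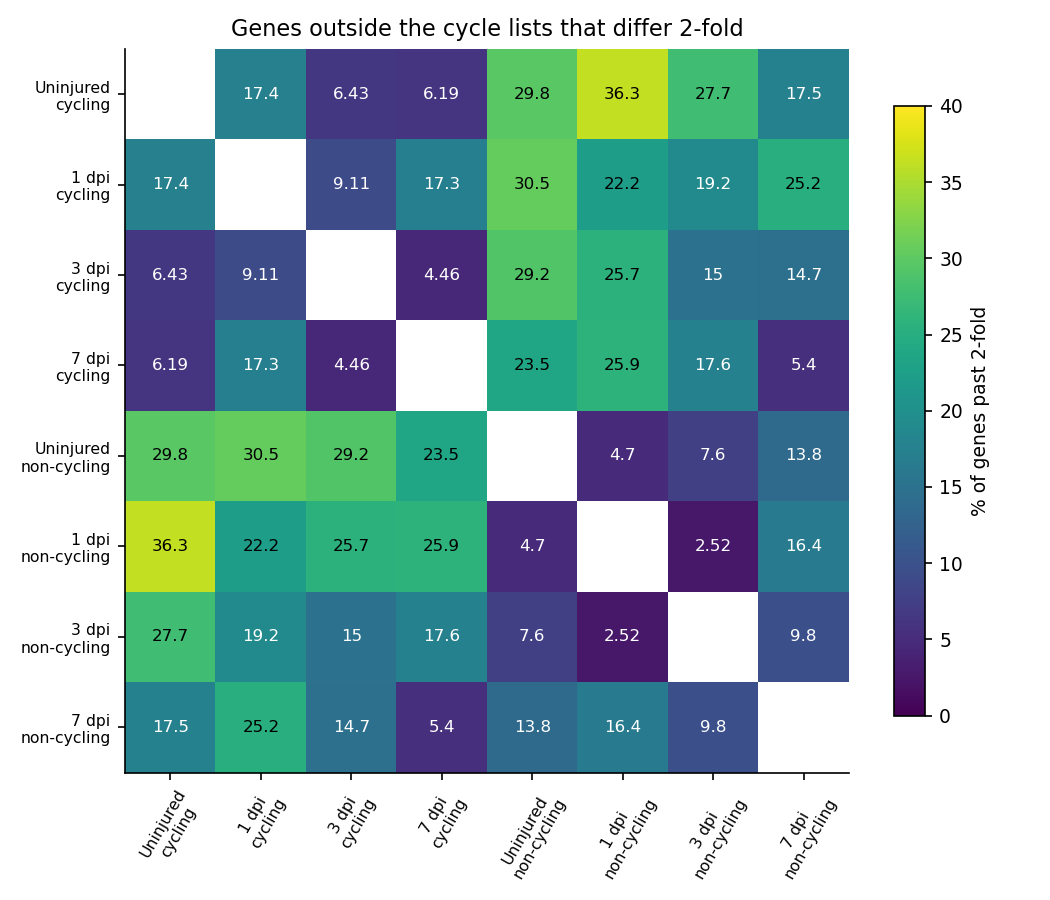
Percent of tested genes outside the cycle lists that differed by more than 2-fold between each pair of 8 populations, the cycling and non-cycling cells of the 4 libraries (both axes), as shade and number. The lowest value between cycling populations is 4.46% (3 against 7 dpi), and the Uninjured cycling cells are nearer to the cycling cells of 3 dpi (6.43%) and 7 dpi (6.19%) than to the Uninjured non-cycling cells (29.8%), which does not hold for the 105 Uninjured cycling cells within 2 SD of depth (16.7%, 13.4% and 12.1%, or 14%, 12.4% and 12.4% with the limit on both sides).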

How the data were processed

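The 4 droplet libraries of muscle cells were made with 10x chemistry. The deposited values are UMI counts of genes in single barcodes, which the authors made with Cell Ranger on mm10; the submitters' processing notes also name Seurat 3.1.1. Their methods state filters at 2 SD of UMI and gene number, DoubletFinder and down-sampled reads, without saying if the deposited matrices came before or after those steps. The matrices hold 62665 cells, 2841 of them over 10% mitochondrial UMIs, so the study's mitochondrial limit had not been applied to them. Gene IDs were placed on GENCODE M21 (32235 of 32285 IDs, 99.85%), and promoters came from RefSeq GRCm38.p6.

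Cells were chosen from the raw UMI counts by the rule in the text, with no doublet filter, and the highest 7.5% of Scrublet scores and the 2 SD limits were left out as alternatives. UMIs were summed per population and library and scaled to 1000000. Genes with a mean of at least 20 CPM were counted past 2-fold. Named genes were the 10 highest and 10 lowest outside the cycle lists with 100 or more UMIs on the higher side, ranked by the ratio nearest to 1 of the injured libraries, and between successive libraries the 10 largest ratios in each direction with at least 10 UMIs on the lower side. The counting of genes past 2-fold and the ratio intervals were tested on simulated sums drawn from the 3 dpi counts. The other steps were not tested on simulated data. The members, lists and rules were chosen with earlier results of these data known. Depth was 91146335 to 129007669 UMIs per library, and with 1 library per time point there was no test between time points. Python 3.11.15, numpy 2.4.6, scipy 1.17.1, pandas 2.3.3, scanpy 1.11.5 and matplotlib 3.10.9 were used.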

Additional observations from a re-analysis of the deposited data

Results flagged for a closer look

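Gene lists whose ratio of cycling to non-cycling cells lay more than 1.5-fold above 1 in one library and more than 1.5-fold below 1 in another are given here, and the difference between libraries was not tested in any of them, since each time point had 1 library. Wound matrix genes were 1.59 times the non-cycling level in the Uninjured library and 0.630 times at 1 dpi; within 2 SD of depth the Uninjured value was 0.954. Schwann cell markers, led by *Ncam1* in cycling cells, were 1.50 times at 3 dpi and 0.591 times at 7 dpi. Erythroid markers were 79.7 times at 1 dpi, where 1950 of 1964 UMIs came from 3 cells, and 0.0502 times in the Uninjured library (139 and 0.0853 within 2 SD). Keratinocyte markers were 1.53 times at 1 dpi and 0.0821 times at 3 dpi, at 3.60 and 3.16 CPM in cycling cells, and 0.992 times at 1 dpi within 2 SD.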

How the results depend on the processing

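No paired analysis was possible because each time point had 1 library and no replicate numbers. Of 182 list ratios recomputed 1014 times, the 420 recomputations of ratios past 2-fold all kept their direction. Among smaller ratios 12 changed side of 1 within 2 SD of depth, 10 with the mean of single-cell CPM, 4 with median scaling and 1 without cells of other types. The comparison of deep cells was not among these settings, and it turned some ratios past 2-fold. Early injury genes in the Uninjured library, at 2.45 times over all depths, were at 21609 against 33936 CPM in deep cells. Adventitial genes at 3 dpi, at 0.483 times, were at 1922 against 1660 CPM there. The values that moved follow, each in the order Uninjured, 1, 3 and 7 dpi or 1 dpi to Uninjured, 3 to 1 and 7 to 3 dpi; the cause was not tested.

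With a minimum of 8 cycle UMIs the cells numbered 1651, at shares of 1.96%, 3.06%, 14.7% and 6.60%, and with 3 the shares at 3 and 7 dpi were 20.01% and 16.9%. Thinned to 2000 UMIs the shares were 3.02%, 4.89%, 21.1% and 33.8%. Within 2 SD on the linear scale 1584 cells were left, at 0.937%, 1.48%, 11.45% and 10.7%. Within 2 SD on the log scale the shares were 1.24%, 2.68%, 14.7% and 11.6%, the S list ratios to non-cycling cells 7.41, 9.88, 5.64 and 3.45, those of the G2/M lists 18.1, 8.09, 9.606 and 8.05, the successive S ratios 2.185, 0.444 and 0.777, the first 2 successive G2/M ratios 0.400 and 1.225, the genes past 2-fold in the Uninjured library 877 instead of 1797, and the S-heavy shares in Uninjured and 7 dpi 11.4% and 5.05%. Set against all cells under 4 cycle UMIs, the S ratios were 6.625, 7.27, 4.90 and 3.25 and the G2/M ratios at 1, 3 and 7 dpi 7.165, 8.14 and 6.005. With the mean of single-cell CPM, the S ratios at 1, 3 and 7 dpi were 9.99, 5.38 and 2.80, the G2/M ratios in Uninjured, 1 and 7 dpi 13.4, 8.11 and 6.17, the successive S ratios 2.38, 0.451 and 0.746, and the first and last successive G2/M ratios 0.5475 and 1.06.

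Without the highest doublet scores, the G2/M ratios in Uninjured, 1 and 7 dpi were 11.39, 7.47 and 8.05, the first S ratio 2.35, and the first and last successive G2/M ratios 0.5945 and 1.17. With totals that left out cycle and collagen genes, the Uninjured G2/M ratio was 11.36. Scaled by the median ratio, the successive ratios were 1.92, 0.5195 and 0.884 for S and 0.516, 1.34 and 1.22 for G2/M. Without the cells of other types, the S ratio at 7 dpi was 4.085, the G2/M ratios at 1, 3 and 7 dpi 7.44, 9.45 and 8.23, and the successive G2/M ratios 0.5985, 1.29 and 1.14. This setting and the 2 SD limit on the linear scale were chosen after seeing the data. The limit on the log scale was planned for the number and shares of cycling cells only. For list ratios, counts of genes past 2-fold and S-heavy shares it was not planned. At a mean of 50 CPM, 965, 808, 549 and 198 genes were past 2-fold instead of 1797, 1516, 1007 and 417, and 508, 310 and 134 between successive libraries instead of 1083, 603 and 258, while at 10 CPM 642 were at 7 dpi. With the rule genes in the G2/M lists, the S-heavy shares at 1, 3 and 7 dpi were 65.9%, 16.1% and 3.67%. In the last 150 bases of the promoter window, 58.4% of G2/M genes held CCAAT. The 2 SD limit bore most on the Uninjured library: 48.3% of its cycling cells lay outside 2 SD, and the 25 ratios of lists other than cell type markers that the limit moved by over 1.5 times were of that library or of 1 dpi against it. Among deep cells, gaps of other libraries were smaller too. At 1 dpi deep cycling and non-cycling cells held 1026 and 1043 CPM of CDK inhibitors and exit genes, and 1314 and 2154 CPM of interstitial genes. Of the marker ratios outside the Uninjured library, the limit moved those at 1 dpi of erythroid (79.7 to 139), leukocyte (1.21 to 2.07), Schwann (0.903 to 1.52) and keratinocyte markers (1.53 to 0.992) and that of leukocyte markers at 7 dpi (0.512 to 0.785) by over 1.5 times too.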

Other observations

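Interferon-stimulated genes, a list of 16 written after the values were seen, were highest in cycling cells at 1 dpi. They summed to 759, 3548, 1026 and 820 CPM in the Uninjured, 1, 3 and 7 dpi libraries, which was 0.572, 1.09, 0.670 and 0.927 times the level of non-cycling cells. Within 2 SD of depth the Uninjured ratio turned to 1.64. The list was 4.68 times the Uninjured level at 1 dpi in cycling cells and 2.46 times in non-cycling cells. Within 2 SD of depth the first value was 1.86, and the Uninjured cycling cells parted on this list too, at 348 CPM in the 98 cells outside the limit and 2194 CPM in the 105 within it.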
